A study of Mus musculus with 2 samples.

Results

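The 10 genes of iron handling described here were measured in primary mouse hepatocytes, chosen by name as the hepcidin genes, the receptors and ligand that feed into hepcidin, and the genes that carry, take up, store and export iron. All 10 were found among the 20317 named genes of the mRNA table, each as 1 RefSeq transcript, and all 10 were at 1 RPKM or more in both libraries. The cells came from wild-type male C57BL/6J mice, bought at 5 weeks of age. The oil group received oil into the peritoneum, and the CCl4 group received a 20% solution of CCl4, a solvent that injures the hepatocytes that metabolize it, at 2.5 ml CCl4 per kilogram. The labels give 8 weeks of injection and the methods 4 weeks. Hepatocytes were isolated by perfusion digestion and a density gradient, and 1 library was made per group. With 1 library a side, no difference has a replicate check and no p-value is given, and the number of mice behind a library is not given in the sources used here. The steps between the deposited values gave 57992598 reads for the oil and 64655544 reads for the CCl4 library, and the counts deposited for new lncRNAs imply larger totals of 62438202 and 70960847 reads. Values under 1 RPKM were deposited as 0, so a gene listed at 0 is one below that level.

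The liver sets the iron level of the whole body. Hepatocytes secrete hepcidin, a small peptide hormone that binds ferroportin, the iron exporter of the cell surface, and causes its removal, so that more hepcidin means less iron released into plasma. Transcription of hepcidin is driven by bone morphogenetic proteins (BMPs) from sinusoidal endothelial cells acting through SMAD proteins, and by IL-6 acting through STAT3. Within cells, iron regulatory proteins (IRPs) bind iron-responsive elements in mRNAs and act on their translation or stability, so the mRNA level of ferritin is only a part of its control.

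Hepcidin itself stood at nearly the same level in both hepatocyte libraries, while its copy Hamp2 (3.07-fold) and the iron exporter Slc40a1 (2.59-fold) were higher and the transferrin receptor Tfr2 (2.29-fold) was lower after CCl4. A transcript was called when its log2 fold change, CCl4 over oil, reached 1 in either direction, with 0.1 RPKM added to each value. RPKM corrects the reads of a transcript for its length and for the depth of the library, so levels can be set side by side between genes. Of the 10 genes, 3 were called higher (Hamp2, Slc40a1 and Bmp6), 1 was called lower (Tfr2) and 6 were not called. Over all 14854 mRNA transcripts at 1 RPKM or more in both libraries, 14.4% were called higher and 5.3% lower. The median log2 fold change was 0.32 over transcripts and 0.30 over genes. At a minimum of 10 RPKM in both libraries, the median was 0.06 over 4422 transcripts, of which 413 were higher and 462 lower. The shift toward higher values was thus smaller among the more abundant transcripts. After both libraries were scaled to the median transcript, 1114 transcripts were higher and 1447 lower, in place of 2145 and 787, and among the iron genes 2 were higher and 3 lower.

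**Figure D1:**
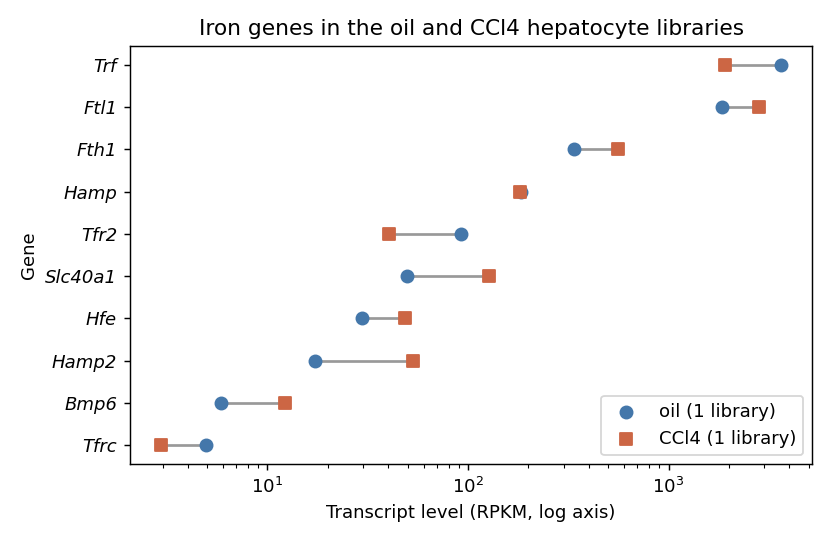
Transcript level of each iron gene in RPKM on a log axis, after oil (circles) and after CCl4 (squares), joined by a line, with 1 library per group and no error bars. The symbols of Hamp lie on each other at 184 and 180.8 RPKM, whereas those of Hamp2, Slc40a1 and Bmp6 lie farther right after CCl4.

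The mouse carries 2 hepcidin genes, Hamp and Hamp2, which neighbor each other on chromosome 7 and are close copies. Their promoters are shown here, since the 2 copies differed in their change between the libraries. The stretches are the 250 bases before the transcription start, on the minus strand of GRCm38.p6, from RefSeq, at chr7:30944030-30944279 for Hamp and chr7:30924182-30924431 for Hamp2. Capitals mark 3 motifs that were searched on both strands. These are the BMP-responsive letters GGCGCC, the STAT letters TTCNNNGAA and the AP-1 letters TGAGTCA.

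Hamp: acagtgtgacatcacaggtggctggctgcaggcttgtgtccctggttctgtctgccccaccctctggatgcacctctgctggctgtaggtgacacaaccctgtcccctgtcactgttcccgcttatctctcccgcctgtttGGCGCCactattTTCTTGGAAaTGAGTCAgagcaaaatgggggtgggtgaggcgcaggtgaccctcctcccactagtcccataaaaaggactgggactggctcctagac

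Hamp2: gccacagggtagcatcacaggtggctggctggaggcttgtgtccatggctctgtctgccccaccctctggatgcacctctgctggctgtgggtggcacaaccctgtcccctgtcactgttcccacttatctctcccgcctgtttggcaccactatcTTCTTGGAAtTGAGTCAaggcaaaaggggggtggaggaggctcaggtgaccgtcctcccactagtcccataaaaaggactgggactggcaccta

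In the whole windows, which run on to 50 bases after the start, 276 of 297 aligned bases were identical (92.9%), with 21 substitutions and no internal gap. The STAT letters were found in both windows, from -97 to -89 relative to the start in Hamp and from -94 to -86 in Hamp2, and in 8.3% of the 32851 promoter windows of this length in the RefSeq table. The AP-1 letters, held by 5.2% of the windows, were also found in both, from -87 to -81 in Hamp and from -84 to -78 in Hamp2. The motif letters did not overlap each other in these windows. The letters GGCGCC were found in Hamp, from -109 to -104, and not in Hamp2, and in 11.9% of all windows. The substitution there was G145A, counted from 1 at the 5′ end of the Hamp window, with the Hamp base first. The antioxidant-response letters TGACNNNGC, present in 12.4% of all windows, were in neither. Elsewhere among the iron genes, these letters were in the windows of Bmp6 and Hfe, the AP-1 letters in that of Hfe, where both matches overlapped, and GGCGCC in 1 window of Tfrc, while the windows of Tfr2, Fth1 and Ftl1 held none of the motifs. A match of letters is a description of the sequence and no evidence of binding, and the libraries hold no measurement of binding.

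**Figure D2:**
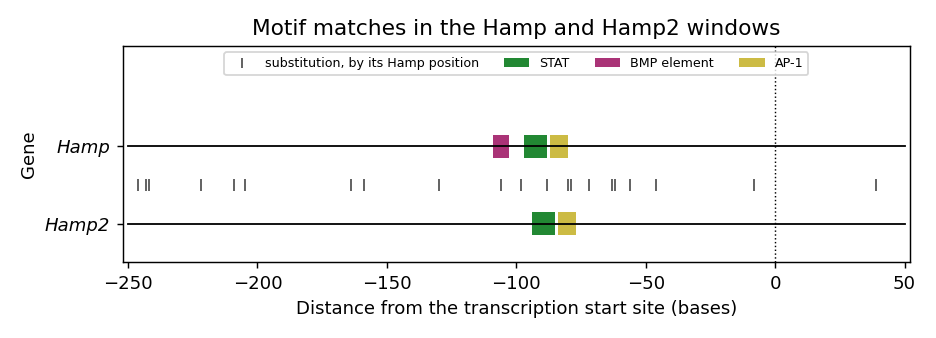
Matches of 3 motifs (colored boxes) in the windows of Hamp and Hamp2, by distance in bases from the transcription start site, with ticks between them for the 21 substitutions at their Hamp positions. The STAT and AP-1 letters occur in both windows, and the BMP letters, from -109 to -104, in that of Hamp alone.

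Hamp encodes hepcidin and spans chr7:30942368-30944029. It was at 184 RPKM after oil and 180.8 RPKM after CCl4, and the log2 fold change was -0.02. These values stand for at least 4204 and 4607 reads, and after division by the total reads of each library their log2 ratio was -0.02, with an interval for counting error alone from -0.09 to 0.04 (95%, exact Clopper-Pearson). The difference was thus within counting error. Hamp was the only one of the 10 genes whose sign depended on the scaling, with -0.35 when scaled to the median transcript and 0.14 when the 10 most abundant transcripts were left out of the library size. Of the genes tested, 68.7% had a larger log2 fold change than Hamp. By level it ranked 274 after oil and 234 after CCl4 among 10689 genes at 1 RPKM or more in both.

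Hamp2, the second hepcidin gene, spans chr7:30922372-30924181. It was at 17.3 RPKM after oil and 53.1 RPKM after CCl4, 3.07-fold higher, with a log2 fold change of 1.61. The reads numbered at least 439 and 1501, and their log2 ratio after division by the library totals was 1.62, with an interval from 1.46 to 1.77 for counting error alone. A larger change was found in 3.91% of genes tested. Hamp2 made up 8.6% of the summed level of both copies after oil and 22.7% after CCl4, and the level of Hamp was 10.6 times that of Hamp2 after oil and 3.4 times after CCl4. The identity of the 2 transcripts was not measured here and how shared reads were counted is not given in the sources used here, so the split of reads between these copies is uncertain. Their summed level, which is less exposed to that split, was 201.3 RPKM after oil and 234 RPKM after CCl4, a log2 fold change of 0.22. By Euclidean distance between the log2 levels in the 2 libraries, the genes nearest to Hamp were Ppib, Akr1a1, Plin2, Cox6a1 and H2bc4, and those nearest to Hamp2 were H2bc13, Clec14a, H2ac10, Abhd12 and Retnlg. With 2 libraries this likeness describes a level and a single difference only.

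Bmp6 encodes the BMP ligand that reports iron stores to the hepatocyte, made chiefly by sinusoidal endothelial cells (chr13:38345716-38500314). It went from 5.89 RPKM after oil to 12.3 RPKM after CCl4, 2.09-fold higher. Its log2 fold change of 1.05 lay just past the limit of a call and was 0.95 with 1 RPKM added and 0.73 when scaled to the median transcript, so the call was lost in both. The reads numbered at least 823 and 1915. Of the 10 sinusoidal endothelial markers, 2 were called higher and 8 were not called, against 14.3% of all genes tested called higher. Their log2 fold changes ran from 0.61 to 1.05 with a median of 0.75, where that of all genes tested was 0.30, and their summed level was 618.4 RPKM after oil and 1060 RPKM after CCl4. Their part in the value of Bmp6 was not tested. In bulk RNA, more cells of a type and more RNA per cell cannot be told apart.

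Hfe encodes an HLA-like membrane protein that interacts with the transferrin receptors and is mutated in the most frequent form of hereditary hemochromatosis (chr13:23702034-23710854). It was at 29.7 RPKM after oil and 48.8 RPKM after CCl4. Its log2 fold change of 0.71 did not reach a call, and 24.6% of genes tested had a larger one. Tfr2, the second transferrin receptor, which senses iron-loaded transferrin on hepatocytes, was called lower (chr5:137569822-137588081). It was at 91.8 RPKM after oil and 40.2 RPKM after CCl4, 2.29-fold lower. Its log2 fold change was -1.19, it kept this call under every scaling that was run, and 3.76% of genes tested had a lower value. The level of Tfr2 was thus 3.09 times that of Hfe after oil and 0.824 times after CCl4.

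Trf encodes transferrin, the plasma carrier of iron and a major secreted product of hepatocytes (chr9:103208876-103230286). It was at 3657 RPKM after oil and 1914 RPKM after CCl4, 1.91-fold lower. Its log2 fold change of -0.93 lay just outside a call and became -1.26 when scaled to the median transcript. Trf was the most abundant of the 10 genes after oil, with 58.8% of their summed level, and the second after CCl4, with 33.3%. Tfrc, the first transferrin receptor, which takes iron-loaded transferrin into cells, was the least abundant of the 10 in both libraries (chr16:32608896-32632794). It was at 4.95 RPKM after oil and 2.94 RPKM after CCl4. The log2 fold change of -0.73 was not called, and it was -1.05 when scaled to the median transcript. Its reads numbered at least 1411 and 933, and their log2 ratio after division by the library totals was -0.75, with an interval from -0.88 to -0.63 for counting error alone. The level of Tfr2 was 18.5 times that of Tfrc after oil and 13.7 times after CCl4.

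Tfrc is also high in dividing cells and in red cell precursors, and both lists were therefore measured beside it. Of the 10 cell cycle genes, 8 could be tested and 7 of them were higher, against 14.3% of all genes tested. Their median log2 fold change was 1.97, on the other side of 0 from the value of Tfrc. Of the erythroid list, 5 genes could be tested. Of these, 2 were lower (against 5.48% of all genes tested) and none higher, and the median was -0.54. The 4 globin genes among them had values from -1.07 to -0.50, and Alas2 was at 53.2 RPKM after oil and 16.9 RPKM after CCl4, and Slc4a1 was at 3.17 RPKM after oil and listed at 0 after CCl4. Epb42 and Hemgn were listed at 0 in both. The summed level of the erythroid list was 3207 RPKM after oil and 2152 RPKM after CCl4. In it, Hba-a1 was at 906.7 and 623.4 RPKM and Hba-a2 at 905.5 and 622.2 RPKM. How reads shared between these globin copies were counted is not given in the sources used here. The sum may thus hold some reads more than once. The part of either list in the level of Tfrc was not tested.

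Ferritin is a shell of heavy and light chains that stores iron, and both chains were higher after CCl4 without reaching a call. Fth1, the heavy chain, which oxidizes iron on entry, was at 336 RPKM after oil and 557.3 RPKM after CCl4, with a log2 fold change of 0.73 (chr19:9980600-9985111). Ftl1, the light chain, was at 1848 RPKM after oil and 2810 RPKM after CCl4, with a log2 fold change of 0.60 (chr7:45457944-45459886). These increases were 1.66-fold and 1.52-fold, and 23.5% and 30.3% of genes tested had larger changes. Light chain was the more abundant at 5.5 times the heavy chain after oil and 5.04 times after CCl4. Ferritin genes have processed pseudogenes, and how reads shared with them were counted is not given in the sources used here. A noncoding transcript of Fth1, deposited apart from the mRNAs, was at 209.5 RPKM after oil and 347.6 RPKM after CCl4, and it could share reads with the mRNA. After CCl4 Ftl1 was the third most abundant of the genes tested, and after oil it ranked 19.

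Slc40a1 encodes ferroportin, the exporter that hepcidin removes (chr1:45908070-45926532). It was at 49.4 RPKM after oil and 127.8 RPKM after CCl4, 2.59-fold higher. Its log2 fold change of 1.37 was called under every scaling that was run, with 1.04 as the lowest value, and 6.76% of genes tested had a larger one. The reads numbered at least 1920 and 5537. The level of Slc40a1 was 0.269 times that of Hamp after oil and 0.707 times after CCl4.

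Ferroportin and ferritin are abundant in Kupffer cells and other macrophages, which recycle iron from red cells. Of the 10 macrophage markers, Cd68 was not analysed here. The other 9 were all at 1 RPKM or more in both libraries and 6 were called higher, against 14.3% of all genes tested. Their log2 fold changes had a median of 1.14, where that of all genes tested was 0.30, and ran from -0.15 to 2.71. Their summed level was 1218 RPKM after oil and 2507 RPKM after CCl4. Clec4f, a Kupffer cell lectin, was at 282.6 and 254.5 RPKM, whereas Marco, a scavenger receptor, was at 42.2 and 277.9 RPKM. The macrophage genes, apart from Clec4f, thus had values above 0 beside Slc40a1, Fth1 and Ftl1, and their part in these levels was not tested.

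**Figure D3:**
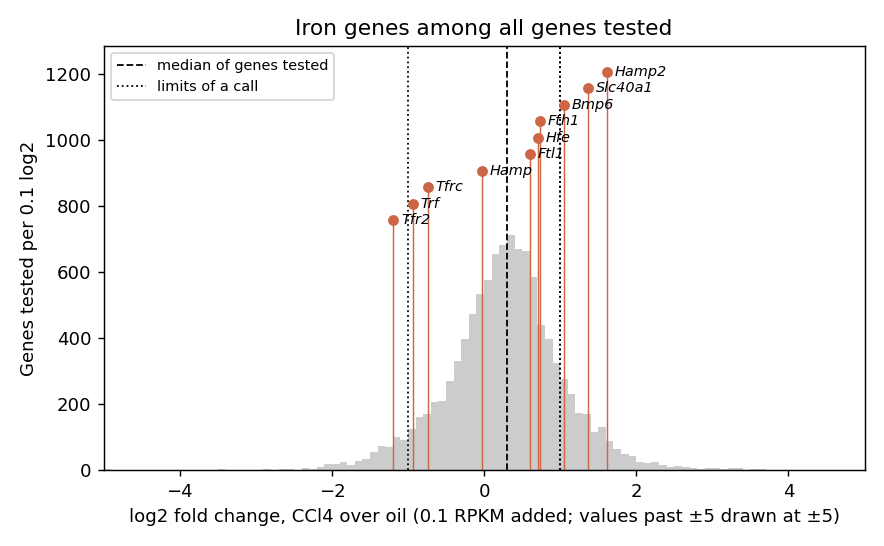
Histogram of the log2 fold change, CCl4 over oil, of the 10689 genes at 1 RPKM or more in both libraries, with the median (dashed), the limits of a call (dotted) and the 10 iron genes as marked lines, whose height carries no value. Tfr2 lies below the lower limit at -1.19, and Bmp6, Slc40a1 and Hamp2 lie above the upper limit at 1.05, 1.37 and 1.61.

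Trf, Tfr2 and Hamp are mainly hepatocyte transcripts, and the hepatocyte markers were lower after CCl4. Of 10 markers, 6 were called lower and none higher, against 5.48% and 14.3% of all genes tested. Their median log2 fold change was -1.25, with a range from -2.33 to -0.42. The summed level was 18860 RPKM after oil and 10750 RPKM after CCl4. Alb, the plasma carrier albumin, was at 8656 and 6476 RPKM, Cyp2e1, the enzyme that activates CCl4, at 644.7 and 127.8 RPKM, and Hnf4a, a transcription factor of hepatocyte identity, at 148.9 and 50.1 RPKM. The values of Trf (-0.93) and Tfr2 (-1.19) lay within the range of these markers, and Hamp (-0.02) lay above the highest of them. Stellate cell and myofibroblast genes were higher, with all 8 testable genes of each list called, against 14.3% of all genes tested. The summed levels went from 75.1 to 496.8 RPKM and from 77.9 to 789.3 RPKM. Of these lists, Pdgfrb, Ngfr, Lox and Thbs2 were listed at 0 after oil. Des was at 1.41 and 10.5 RPKM, Acta2 at 1.58 and 8.92 RPKM and Stx2 at 6.31 and 14.7 RPKM, while Adgre1 of macrophages was at 33 and 78.8 RPKM and the fetal gene Afp was listed at 0 after oil and at 4.21 RPKM after CCl4. Of the cholangiocyte markers, 3 of 6 were at 1 RPKM or more in both libraries. Of these, 1 was called higher, Krt19 at 8.86 and 17.8 RPKM, and 2 were not called. The 3 had log2 fold changes from 0.635 to 1.002, with a median of 0.645. Sox9, Cftr and Cldn7 were listed at 0 in both libraries. A smaller share of hepatocyte RNA after CCl4 and lower expression per hepatocyte cannot be told apart.

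**Figure D4:**
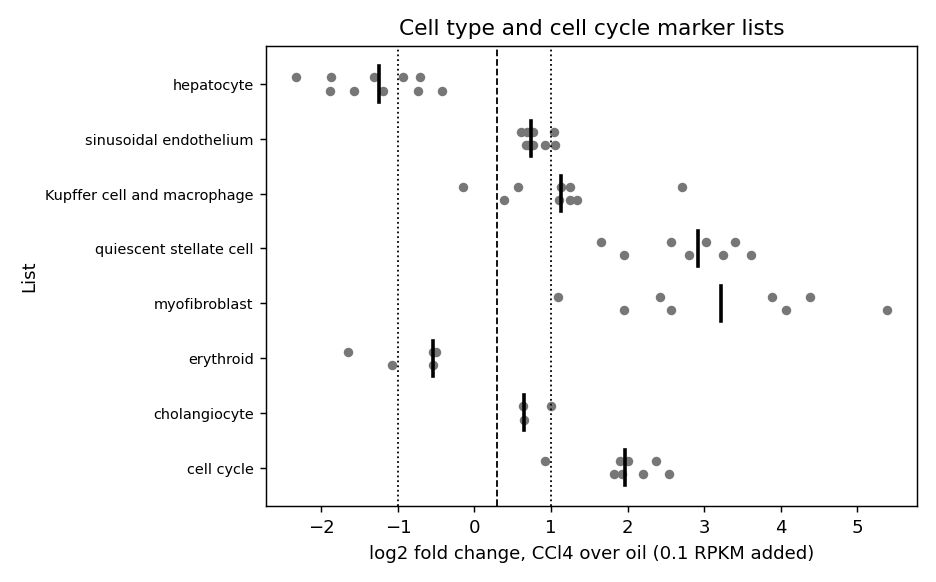
Log2 fold change, CCl4 over oil, of each marker gene at 1 RPKM or more in both libraries (points), with the median of each list (bar), the median of all genes tested (dashed) and the limits of a call (dotted). Hepatocyte markers lie from -2.33 to -0.42, and every stellate cell and myofibroblast marker lies above 1.

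The other genes of the pathway were taken from lists written by role. Over all 10689 genes tested, 14.3% were called higher and 5.48% lower. The counts of each list below are to be read beside these shares. The lists held 124 genes besides the 10 members, of which 110 could be tested, and 13 (11.8%) were higher and 22 (20%) lower. Scaling to the median transcript gave 7 higher and 31 lower genes. Of the 22 lower genes of these lists, acute phase proteins made up 17.

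In the BMP and SMAD arm, 25 of 30 genes could be tested, 8 were higher (Bmp6 among them) and 1, Tfr2, was lower, and the median log2 fold change was 0.76 against 0.30 for all genes tested. When scaled to the median transcript, 3 were higher (Bmp5, Id3 and Smad6) and 2 lower, so that Smad7 was no longer called. With 1 RPKM added 5 were higher, and at a minimum of 10 RPKM 2 were. With the 10 most abundant transcripts left out of the library size, 10 were higher. The ligand Bmp5 had the largest increase, from 1.12 RPKM after oil to 11.4 RPKM after CCl4 with a log2 fold change of 3.24. Id3 and Smad6, both induced by BMP signaling, went from 71.6 to 221 RPKM and from 9.61 to 27.2 RPKM, with log2 fold changes of 1.62 and 1.49. Smad7, an inhibitor of hepcidin transcription that BMP signaling also induces, went from 4.69 to 10.6 RPKM, a log2 fold change of 1.16. Id1, a further target, was at 16.1 and 30.4 RPKM and at 0.91 was not called. Id2, another, was at 48.3 and 47.2 RPKM, with a log2 fold change of -0.04. Hjv, the BMP co-receptor hemojuvelin, was at 15.5 and 13 RPKM, a log2 fold change of -0.25. Tmprss6, the protease that cuts hemojuvelin and so restrains hepcidin, was at 69.7 and 35 RPKM, and its log2 fold change of -0.99 lay at the limit of a call. Bmp2, the other endothelial ligand of this pathway, was at 23.7 and 41.2 RPKM without a call (0.79), so the level of Bmp6 was 0.248 times that of Bmp2 after oil and 0.298 times after CCl4. Bmp2 and Id2 were added to the genes named here after their values had been seen. The values of these BMP targets thus ran from -0.04 (Id2) to 1.62 (Id3), and these genes are also expressed by endothelial and stellate cells, whose part was not tested. Erfe, the erythroid hormone that lowers hepcidin, was listed at 0 in both libraries.

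In the IL-6 and STAT3 arm, 12 of 14 genes could be tested, none was higher and 1 was lower, with a median of -0.13. The gene called lower was Il1r1, a receptor of IL-1, from 20 to 9.3 RPKM, a log2 fold change of -1.09. This call was lost when the 10 most abundant transcripts were left out of the library size, which left 0 lower genes, and scaling to the median transcript gave 2. Il6 was listed at 0 in both libraries. Il6ra, its receptor, was at 12 and 11 RPKM, Stat3, the transcription factor, at 36 and 26.1 RPKM, and Socs3, a feedback inhibitor that STAT3 induces, at 18.1 and 16.4 RPKM, and none of these was called. Acute phase proteins, many of which IL-6 drives as it drives hepcidin, were measured beside it and were mostly lower. Of 20 such genes, 17 were called lower and 1 higher, and the median log2 fold change was -2.1. Saa2 went from 2894 to 28.8 RPKM, Saa1 from 2359 to 45.3 RPKM and Orm2 from 165.4 to 8.85 RPKM, whereas Saa3, which macrophages also make, went from 80.5 to 336.6 RPKM. Copies of Saa and of Orm are similar enough that reads could be split between them. The value of Hamp (-0.02) lay above those of all genes of the list except Saa3 and Cd14, a receptor of bacterial lipopolysaccharide at 27.7 and 41 RPKM, which was named after its values had been seen.

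Of the iron uptake genes, 15 of 18 could be tested and 4 were called lower and none higher, with a median log2 fold change of -0.73. Scaled to the median transcript, 8 were lower, and with a call limit of 2 on the log2 scale 1 was. Besides Tfr2, the 4 were Lcn2, which binds iron-carrying siderophores and is an acute phase protein (99.7 and 21.4 RPKM, -2.22), Scara5, a receptor of ferritin (6.74 and 1.62 RPKM, -1.99), and Slc39a14, the importer of iron not bound to transferrin (38.7 and 13.1 RPKM, -1.55). Slc11a2, which moves iron out of endosomes, was at 6.47 and 3.65 RPKM and was not called. Among storage genes, 8 of 9 could be tested and none was called in either direction, and the median log2 fold change was 0.45 against 0.30 for all genes tested. Ncoa4, the receptor that delivers ferritin to the lysosome, was at 35.8 and 51.1 RPKM, a log2 fold change of 0.51.

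Of the 7 export genes, 5 could be tested and 3 were higher. Beside Slc40a1 these were Heph, a ferroxidase of the membrane, from 1.17 to 3.12 RPKM (1.35), and Flvcr1, named as a heme exporter, from 2.43 to 5.54 RPKM (1.16), both at low levels. With 1 RPKM added, Slc40a1 was the only one of them still called. Cp, the plasma ferroxidase ceruloplasmin, which hepatocytes secrete, was at 131.6 and 72.1 RPKM and was not called at a log2 fold change of -0.87. Scaled to the median transcript, Cp was called lower, and Slc40a1 and Heph were the 2 genes called higher.

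None of the 5 genes of the IRP system was called, whereas 2 were lower when scaled to the median transcript. Aco1 and Ireb2, the iron regulatory proteins, were at 35.5 and 21.6 RPKM and at 4.1 and 4.52 RPKM, and Fbxl5, the iron sensor that marks Ireb2 for degradation, was at 8.59 and 9.91 RPKM. Of the 10 mRNAs listed as carrying an iron-responsive element, 9 could be tested, and Slc40a1 was higher and Alas2, the heme synthesis enzyme of red cell precursors, was lower (-1.65). Scaled to the median transcript, 3 of them were lower. Among the mRNAs named here whose elements lie before the coding sequence, the values were 0.73 for Fth1, 0.60 for Ftl1, 1.37 for Slc40a1, 0.39 for Epas1 and -1.65 for Alas2. Among those whose elements lie behind it, they were -0.73 for Tfrc, -0.81 for Slc11a2 and 0.28 for Cdc42bpa, and Cdc14a was listed at 0 after oil and at 1.92 RPKM after CCl4. Both classes thus held values on either side of 0. Epas1, Cdc42bpa and Cdc14a were named after their values had been seen.

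In heme and hemoglobin scavenging, 2 of 10 genes were higher and 2 lower, and when scaled to the median transcript 1 was higher, Slc48a1 having lost its call. Hmox1, which frees iron from heme, went from 40.6 to 103.9 RPKM, a log2 fold change of 1.35, and Slc48a1, which moves heme out of endosomes, went from 14.2 to 30.4 RPKM (1.09). Hp and Hpx, the plasma proteins that bind hemoglobin and heme and are also acute phase proteins, went from 2845 to 1018 RPKM (-1.48) and from 2542 to 920.5 RPKM (-1.47). Of the 21 genes of mitochondrial iron and Fe-S cluster assembly, 19 were not called, and scaling to the median transcript gave 2 lower genes in place of 1. The exceptions were Hscb, a co-chaperone of cluster assembly, higher from 2.9 to 10.9 RPKM (1.87), and Fdx1, a ferredoxin, lower from 47.6 to 20.5 RPKM (-1.21).

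By level, the 10 genes spanned from Trf at 3657 RPKM to Tfrc at 4.95 RPKM after oil and from Ftl1 at 2810 RPKM to Tfrc at 2.94 RPKM after CCl4. After oil the order was Trf, Ftl1, Fth1, Hamp, Tfr2, Slc40a1, Hfe, Hamp2, Bmp6 and Tfrc. After CCl4 it was Ftl1, Trf, Fth1, Hamp, Slc40a1, Hamp2, Hfe, Tfr2, Bmp6 and Tfrc. Without replicates no neighbors in these orders can be said to differ. The summed level of the 10 genes was 6223 RPKM after oil and 5747 RPKM after CCl4, and without Trf it was 2567 and 3834 RPKM.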

How the data were processed

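The 2 libraries of primary mouse hepatocytes were compared, 1 per group. The authors deposited RPKM values per RefSeq transcript, in which every value under 1 was listed as 0, and raw read counts, lengths and RPKM of new lncRNAs. The submitters' processing notes name CASAVA 1.4, TopHat2 and mm10. The counting program, its handling of shared reads and of strand, and the annotation version are not given in the sources used here. The deposited tables also hold the authors' own log2 changes, p-values and q-values, which were not used.

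Symbols came from a GRCm38.p6 RefSeq table and were found for 27049 of 27457 transcripts. Where a gene had several transcripts, the one with the highest mean RPKM stood for it. Transcripts at 1 RPKM or more in both libraries were compared as log2 of CCl4 over oil RPKM with 0.1 RPKM added and were called at an absolute value of at least 1. No test was run. Sequences came from RefSeq. Promoter windows were found for Hamp, Hamp2, Bmp6, Tfrc, Tfr2, Hfe, Fth1 and Ftl1.

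The totals that gave the most whole reads in genes under 400 bases were taken from the RPKM values, a value counting as whole within 0.02 reads plus 5e-06 of itself, and this gave 57992598 reads (oil, whole reads in 164 of 168 genes) and 64655544 reads (CCl4, 175 of 181). Lengths of 50 to 30000 bases were then tried for each iron gene, and the shortest at which both values were whole reads was kept (within 0.002 reads plus 5.5e-06 of the value), so its reads are lower bounds. This step was added after the data were seen. On 1397 new lncRNAs with known counts it was exact in 82.1% and never above them, but this second tolerance was set after a looser one had been compared with the same counts, so the share is no independent check. Intervals cover counting error only.

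Named were the 10 genes, role genes of each list, up to 3 called genes with the largest change in each direction per list, the markers of the study's purity assay and the 5 genes nearest to Hamp and to Hamp2. Some genes of these lists are not reported here by name. Members and lists were chosen with earlier results of these data known. The alternatives were another pseudocount, scaling, call limit, minimum and transcript choice. The fold call and the read recovery were tested on simulated data. Python 3.11.15, numpy 2.4.6, pandas 2.3.3, scipy 1.17.1, matplotlib 3.10.9 and Biopython 1.88 were used.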

Additional observations from a re-analysis of the deposited data

Results flagged for a closer look

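The annotated lncRNA table, which the comparisons above do not use, holds a noncoding transcript of Fth1, NR_073181. It was at 209.5 RPKM after oil and 347.6 RPKM after CCl4, above the level in the oil control, with a log2 fold change of 0.73. Fth1 mRNA had a log2 fold change of 0.73 as well. Both transcripts come from 1 gene, and how reads common to them were counted is not given in the sources used here, so the 2 values are not independent.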

How the results depend on the processing

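All values describe 1 library per group, so the spread between preparations is unknown. Counting error was computed for the 10 iron genes alone and was small beside most of their differences. Among the iron genes, 3 higher and 1 lower became 0 and 0 with a call limit of 2 on the log2 scale, and 6 and 3 with a limit of 0.58, which follow from the limit itself. Scaled to the median transcript, 3 were lower (Tfr2, Trf and Tfrc), since that scaling lowers every value by about 0.32. Over the whole table, 2145 of 14854 transcripts were called higher and 787 lower. These counts became 245 and 96 with the limit of 2, and 4839 and 1746 with that of 0.58. At a minimum of 10 RPKM they were 413 and 462, of only 4422 transcripts tested. Scaled to the median transcript they were 1114 and 1447, and 2944 and 568 with the 10 most abundant transcripts left out of the library size. The pathway genes, 13 higher and 22 lower, became 2 and 12 at 2, and 26 were higher at 0.58. At a minimum of 10 RPKM 5 were higher, and 7 were when scaled to the median transcript. With the 10 most abundant transcripts left out of the library size, 16 were higher and 21 lower. Fewer genes are tested at the higher minimum. Of the 10 iron genes, 9 kept their sign under each alternative that gave them a value, the exception being Hamp, from -0.35 to 0.14. Bmp6 and Tfrc have no value at the minimum of 10 RPKM. No paired analysis was possible because each group has 1 library.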
